A study of Mus musculus with 31 samples.

Results

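Leukocyte integrins were followed through 9 populations of mouse bone marrow, from long-term haematopoietic stem cells to granulocytes. The 10 genes are Itgam, Itgal, Itgax, Itgb2, Itga4, Itga5, Itga6, Itgb1, Itgb3 and Itgb7, taken by symbol from the array's probe annotation, out of 19938 genes with a probe of their own. Each of the 10 was read by 1 probe that pairs with no other gene. All mice were wild-type C57BL/6, and every sample was RNA of 20000 cells that had been sorted by surface antigens, amplified and hybridised to a whole-transcript array. The labels describe the replicates as biological and state no age, sex, animal or pool of animals, so p-values measure the spread between these samples.

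The 5 least mature populations were lineage-negative, cKit-positive and Sca1-positive. Among them, long-term stem cells (LT-HSC, n = 4) were Flk2-, CD48- and CD150+, and short-term stem cells (ST-HSC, n = 3) were Flk2-, CD48- and CD150-. Of the multipotent progenitors, MPP2 (n = 3) were Flk2-, CD48+ and CD150+, MPP3 (n = 3) were Flk2-, CD48+ and CD150-, and MPP4 (n = 5) were Flk2+. Common myeloid progenitors (CMP, n = 3) were lineage-negative, cKit+, CD34+ and negative for the Fc gamma receptor, for which granulocyte-macrophage progenitors (GMP, n = 4) were positive. Pre-granulocytes (PreGr, n = 3) were Mac1+ with intermediate Gr1, and granulocytes (Gr, n = 3) were Mac1+ with high Gr1. The submitters state that HSC and GMP samples were shared with another of their array studies.

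Integrins are adhesion receptors made of 1 alpha and 1 beta chain. The beta2 chain, encoded by Itgb2, pairs with the alpha chains of Itgal (LFA-1), Itgam (Mac-1) and Itgax, and these receptors carry leukocyte arrest, crawling and phagocytosis. The alpha4 chain of Itga4 pairs with beta1 (VLA-4, a receptor for VCAM-1 and fibronectin that holds progenitors in marrow) or with beta7, a gut-homing receptor. Alpha5 beta1 binds fibronectin, alpha6 beta1 binds laminin, and beta3 pairs with the alpha chains of Itga2b on platelets and of Itgav. Talin and kindlin, recruited through Rap1, switch the receptors to the binding state. Mac1 is itself the product of Itgam with its beta2 partner: it was selected for in PreGr and Gr and, as one of the lineage antibodies, against in the other 7 populations. The difference in Itgam between these gates is therefore a check of the sort and not a finding, and Itgb2 encodes the other chain of the sorted antigen.

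Promoter sequences of 6 of the 10 genes were in the RefSeq table used here (build GRCm38.p6). The 250 bases before the start of 3 of them are shown, on the strand of the gene. Itgam is shown because it encodes the sort antigen, Itgax because it is the neighbour of Itgam on chromosome 7 and was called in no comparison by both fits, and Itgb1 because it moved the opposite way to Itgam in granulocytes. Capitals mark the letters GAGGAA or their reverse complement TTCCTC, a core that the myeloid factor PU.1 is known to bind. They lie at chr7:128062390-128062639 (plus strand), chr7:128129300-128129549 (plus strand) and chr8:128685404-128685653 (plus strand), respectively.
Itgam: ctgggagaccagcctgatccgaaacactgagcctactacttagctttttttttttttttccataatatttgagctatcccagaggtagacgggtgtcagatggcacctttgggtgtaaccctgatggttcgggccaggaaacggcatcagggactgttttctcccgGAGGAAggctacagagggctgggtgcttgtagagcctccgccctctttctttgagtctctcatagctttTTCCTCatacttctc
Itgax: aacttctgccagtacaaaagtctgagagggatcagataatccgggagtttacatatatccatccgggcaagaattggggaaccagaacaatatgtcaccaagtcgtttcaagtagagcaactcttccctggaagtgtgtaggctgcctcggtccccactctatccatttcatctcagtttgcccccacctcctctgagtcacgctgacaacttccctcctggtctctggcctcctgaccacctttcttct
Itgb1: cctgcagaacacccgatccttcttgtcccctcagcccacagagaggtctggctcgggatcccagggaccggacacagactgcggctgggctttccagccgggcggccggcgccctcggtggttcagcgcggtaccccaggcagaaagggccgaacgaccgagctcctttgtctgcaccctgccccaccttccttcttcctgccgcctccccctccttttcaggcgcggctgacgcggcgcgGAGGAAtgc
The core was searched on both strands and occurred in 23.3% of 32851 promoters of this length. Itgam held 2 matches, whose first bases lie 84 and 15 bases before the start, Itgb1 held 1 at 9 bases and Itga5 held 1 at 127 bases. The promoters of Itgax, Itga4 and Itgb7 held none. A match is a description of the letters and says nothing about occupancy.

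Values are log2 intensities after all arrays were brought to 1 common distribution by quantile normalization. The deposited arrays fell into 5 sets by probes with identical values, and the labels do not name these sets. Array medians differed between sets, except that those of set 2 (6.86 to 6.996) and set 4 (6.90 to 7.05) overlapped. Pairs of set 2 arrays shared at most 4 identical values, against up to 251 in set 5. LT-HSC 1 to 3 formed set 1, while LT-HSC 4, MPP3 3, MPP4 4 and 5 and GMP 4 formed set 2. Set 3 held ST-HSC, MPP2 and MPP3 1 and 2, set 4 held MPP4 1 to 3 and CMP, and set 5 held GMP 1 to 3, PreGr and Gr. A gene was taken to have risen or fallen only where limma gave a Benjamini-Hochberg adjusted p under 0.05, over all 19938 genes, in the same direction in 2 fits, with and without the set as a block. Fold changes and adjusted p-values are those of the fit without the block unless stated. Sort antigens followed most gates: Ly6g was 11.27 ± 0.55 (SD) in PreGr and 12.82 ± 0.08 in Gr but 5.33 ± 0.40 in GMP, and Slamf1, which encodes CD150, was 8.71 ± 0.61 in LT-HSC and 5.05 ± 0.34 in ST-HSC. Flt3, the gene for Flk2, was highest in the Flk2+ MPP4, at 11.27 ± 0.54, but was not alike among the populations sorted as Flk2-. Among these it was 9.96 ± 0.09 in ST-HSC and 9.72 ± 0.13 in MPP3, against 8.21 ± 0.25 in LT-HSC and 8.18 ± 0.48 in MPP2.

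**Figure D1:**
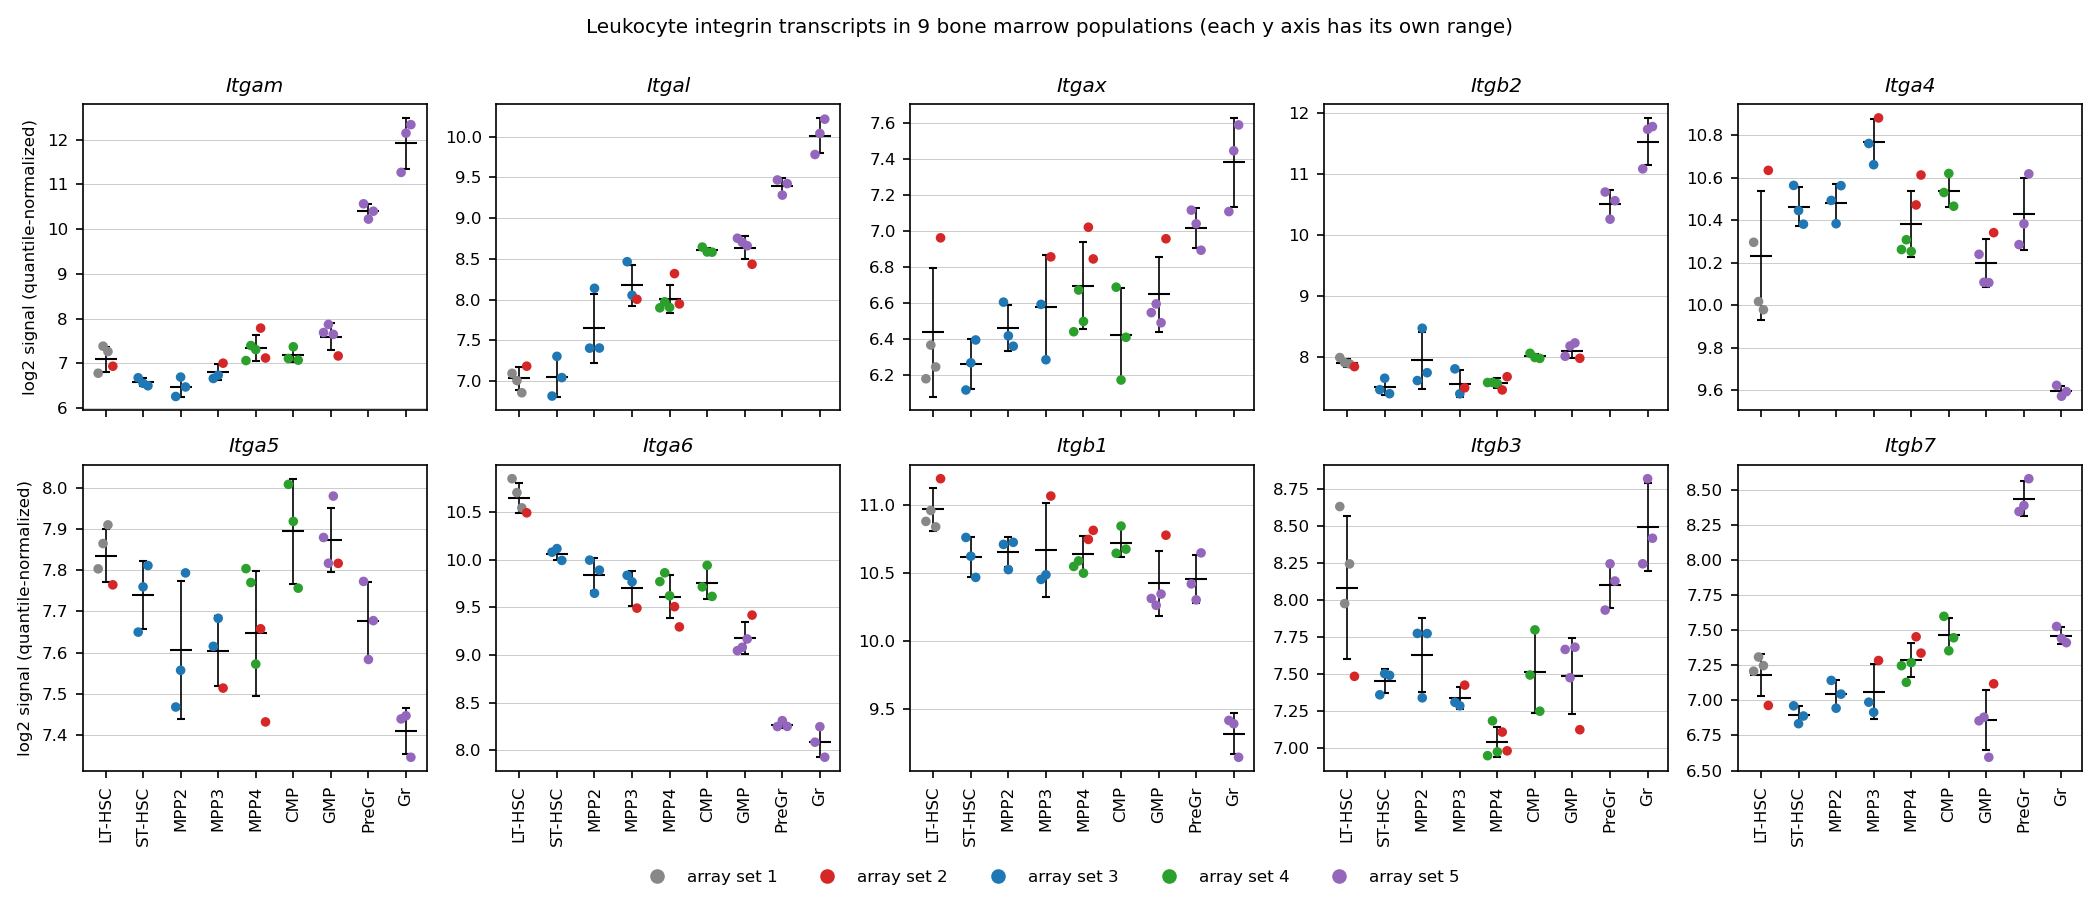
Level of the 10 integrin genes on each of the 31 arrays, 1 panel a gene, with quantile-normalized log2 intensity on the vertical axis (each panel has its own range) and the populations on the horizontal axis. Points are arrays coloured by array set, and bars show the mean ± SD. Itgam and Itgb2 sit apart in PreGr and Gr, Itgb7 has its highest points in PreGr, and Itga6 is highest in LT-HSC.

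Across 12 comparisons of neighbouring or related populations, 19 of 120 gene-by-comparison results passed both fits, and 8 of the 10 genes passed at least once. Itgax and Itga5 were not among them, although with array weights both fits called Itgax at both granulocyte steps (larger limma adjusted p = 0.002925 and 0.01034) and Itga5 from PreGr to Gr (0.02835). The 2 granulocyte steps held 12 of the 19 results, and 8 of the 15 that remain without Itgam and Itgb2, the chains of the sorted antigen. Calls over all genes were also most frequent in these steps, at 15.6% and 19.3% against 0.281% to 6.59% in the other comparisons. From GMP to PreGr 5 of the 10 rose and 1 fell, and of the 8 genes other than those chains 3 rose and 1 fell. Of all genes, 15.6% were called in this step, 6.63% higher and 8.98% lower. From PreGr to Gr 3 of the 10 rose and 3 fell (1 and 3 of the 8), and 19.3% of all genes were called, 8.12% higher and 11.2% lower. In bulk samples such as these, a change in the share of cells that express a gene and a change in RNA per cell cannot be told apart.

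Itgam, the alpha chain of Mac-1, was 7.69, 7.87, 7.65 and 7.17 in the 4 GMP arrays, 10.56, 10.22 and 10.40 in PreGr, and 11.27, 12.14 and 12.33 in Gr. No value of 1 of these populations reached those of the next. The log2 difference was 2.80 ± 0.20 (SE; 6.98-fold; limma adjusted p = 2.404e-11) at the gate from GMP to PreGr. Both PreGr and Gr were gated as Mac1+, and between them Itgam rose by a further 1.52 ± 0.22 (2.87-fold; limma adjusted p = 7.079e-06). The 7 Mac1-depleted populations had means between 6.47 in MPP2 and 7.59 in GMP, and each overlapped its neighbour in the order of levels.

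Itgb2, the shared beta2 chain, followed the same steps. It was 8.01, 8.17, 8.22 and 7.97 in GMP, 10.71, 10.26 and 10.56 in PreGr and 11.09, 11.74 and 11.78 in Gr. The 3 populations did not overlap. It rose by 2.42 ± 0.16 from GMP to PreGr (5.34-fold; limma adjusted p = 4.053e-12) and by 1.03 ± 0.17 from PreGr to Gr (2.04-fold; limma adjusted p = 5.903e-05). In the stem and progenitor populations its means lay between 7.50 in ST-HSC and 8.09 in GMP, and MPP2 2 stood at 8.47 against 7.61 and 7.74 in the other MPP2 arrays. No comparison among these 7 populations called Itgb2 in both fits. Its differences of 0.44 ± 0.15 between CMP and MPP4 and 0.44 ± 0.17 between MPP2 and ST-HSC missed the threshold (limma adjusted p = 0.09935 and 0.1533), and the first passed within set 4 (0.01289), with array weights (larger adjusted p of the 2 fits 0.0375) and with values centred on array medians (0.01425).

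Itgal, the alpha chain of LFA-1, also rose among progenitors; whether it differed there from Itgb2 was not tested. It was 7.09, 7.01, 6.86 and 7.18 in LT-HSC, 6.82, 7.30 and 7.04 in ST-HSC, and 7.40, 8.14 and 7.41 in MPP2. MPP3 arrays read 8.47, 8.05 and 8.003, and MPP4 arrays read 7.90, 7.97, 7.90, 8.32 and 7.95. CMP arrays read 8.64, 8.58 and 8.58. LT-HSC and ST-HSC thus overlapped at the bottom of the order, MPP2, MPP4 and MPP3 overlapped in the middle, and CMP lay above all of them. GMP, at 8.75, 8.70, 8.66 and 8.43, overlapped CMP, and PreGr (9.47, 9.28 and 9.42) and Gr (9.78, 10.04 and 10.21) were each higher than every array before them.

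The step from ST-HSC to MPP3 gave the largest progenitor difference of Itgal that passed both fits, 1.12 ± 0.17 (2.17-fold; limma adjusted p = 7.439e-05), in a comparison that called 2.35% of all genes. Within set 3 alone, where 2 MPP3 arrays remain, the difference was 1.21 and its limma adjusted p was 0.07824. MPP2 was above ST-HSC by 0.60 ± 0.17 (limma adjusted p = 0.02671; 6.59% of all genes called). This call was lost without ST-HSC 1 (log2 difference 0.48, larger adjusted p of the 2 limma fits 0.1877), without ST-HSC 3 (0.59, 0.07937) and without MPP2 2 (0.35, 0.2646), and within set 3 its adjusted p was 0.2022. Both comparisons share the ST-HSC arrays. Of the 8 B and plasma cell markers 4, and of the 10 T and NK cell markers 5, were also higher in MPP3 than in ST-HSC. A list level here is the mean of log2 values over the genes of a list. For the former it was 8.33 to 8.56 in MPP3 and 6.43 to 6.56 in ST-HSC. For the latter it was 6.92 to 7.22 and 6.24 to 6.39. Markers of eosinophils, basophils and mast cells were higher in both MPP3 and MPP2 (3 of 8 each; list level 6.98 to 7.56 and 6.90 to 7.56, against 6.17 to 6.24 in ST-HSC). In MPP2, 3 of 7 erythroid (8.04 to 8.16 against 7.22 to 7.38) and 3 of 6 platelet markers (8.43 to 8.797 against 7.796 to 8.10) were also higher. Their part in the results was not tested.

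Against LT-HSC, Itgal was higher in MPP4 by 0.97 ± 0.14 (1.96-fold; limma adjusted p = 1.073e-05; 1.99% of all genes called). With the set as a block the difference was 0.95 with an adjusted p of 0.03357, and the call was lost without MPP4 4, where the difference was 0.90 and the larger limma adjusted p 0.2082. In MPP3 against LT-HSC the difference of 1.14 ± 0.16 did not pass with the set as a block (0.82, limma adjusted p = 0.07624), though it did when MPP2 2 was left out (0.02572). That block rests on LT-HSC 4, the only LT-HSC array that shares a set with another population. CMP exceeded MPP4 by 0.60 ± 0.15 (1.51-fold; limma adjusted p = 0.01714; 4.04% of all genes called). This call was lost without CMP 1, CMP 2 or CMP 3, with differences of 0.58, 0.61 and 0.61 and larger limma adjusted p-values of 0.08111, 0.06025 and 0.064. Markers of several other lineages were higher in CMP than in MPP4 as well. They were 4 of 6 platelet markers (list level 8.53 to 8.55 against 6.96 to 7.35), 4 of 8 of eosinophils, basophils and mast cells (7.39 to 7.54 against 6.23 to 6.70), 4 of 9 monocyte (7.42 to 7.75 against 6.69 to 6.88), 3 of 7 erythroid (8.14 to 8.25 against 7.04 to 7.58) and 3 of 10 granulocyte markers (7.51 to 7.74 against 6.92 to 7.08). Their part was not tested.

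At the granulocyte steps Itgal rose by 0.75 ± 0.16 from GMP to PreGr (1.69-fold; limma adjusted p = 0.0007698) and by 0.62 ± 0.17 from PreGr to Gr (1.54-fold; limma adjusted p = 0.007402). The second call was lost without Gr 3, where the difference was 0.52 and the larger limma adjusted p 0.06816. Itgax, the alpha chain known from dendritic cells and macrophages, had its highest means in PreGr (7.02 ± 0.11) and Gr (7.38 ± 0.25) against 6.65 ± 0.21 in GMP. Neighbouring populations overlapped throughout its order of levels. Differences of 0.37 ± 0.18 and 0.36 ± 0.19 at the 2 granulocyte steps missed the threshold without the block (limma adjusted p = 0.1834 and 0.2112) and passed with it (0.0102 and 0.03901). The set 2 arrays read 0.40 to 0.70 higher for Itgax than the other arrays of the same population in all 4 populations that span 2 sets.

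**Figure D2:**
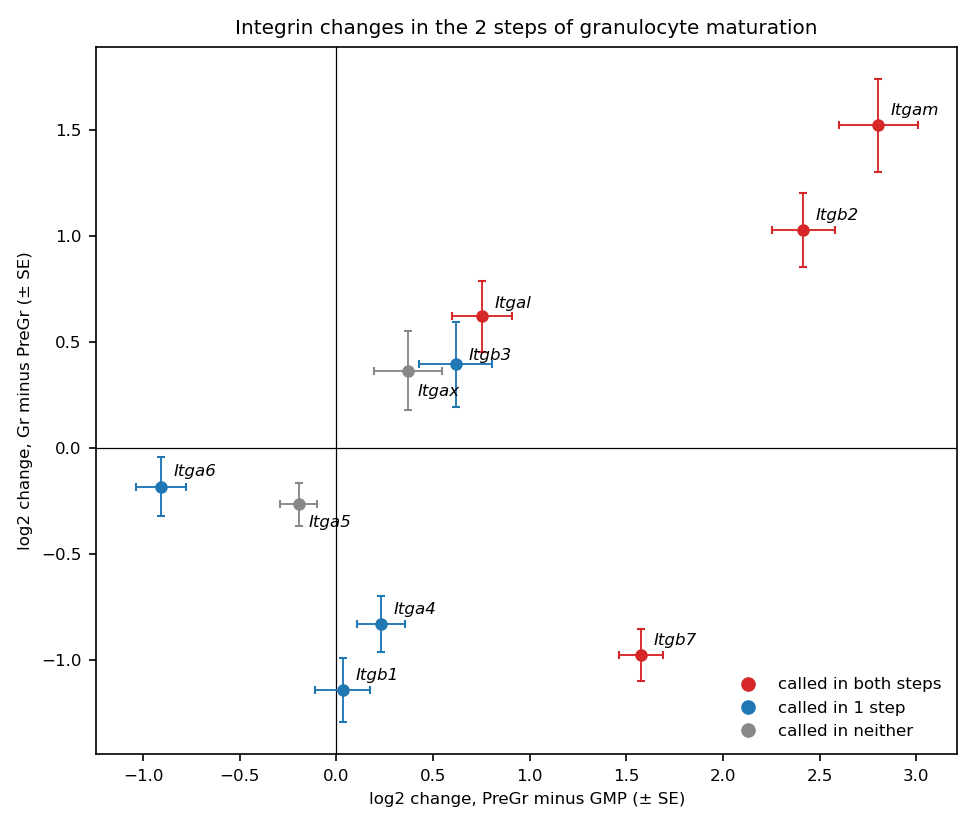
Log2 differences of the 10 integrin genes at the 2 granulocyte steps, PreGr minus GMP and Gr minus PreGr, with standard errors from the fit without the block. Itgam and Itgb2 are highest in the first step, at 2.80 and 2.42, and Itgb7 changes sign, from 1.58 to -0.98.

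Itgb7, the beta chain that pairs with alpha4, peaked in PreGr. The arrays read 6.85, 6.88, 6.59 and 7.12 in GMP, 8.35, 8.39 and 8.58 in PreGr and 7.53, 7.44 and 7.41 in Gr. All 3 PreGr arrays were above every other array of the series. Itgb7 rose by 1.58 ± 0.11 (2.98-fold; limma adjusted p = 2.139e-11) and then fell by 0.98 ± 0.12 (1.97-fold; limma adjusted p = 8.96e-07). In the earlier populations its means were between 6.89 in ST-HSC and 7.47 in CMP. The difference of GMP from CMP, -0.60 ± 0.11, passed without the set block (limma adjusted p = 0.0005675) and not with it (-0.53, limma adjusted p = 0.1181).

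Markers of other cells peaked in the PreGr gate with Itgb7. Of 9 monocyte and macrophage markers 5 rose from GMP to PreGr, among them Adgre1 (2.02 ± 0.17) and Ccr2 (1.82 ± 0.30), and 6 fell from PreGr to Gr. The list level was 8.54 to 8.69 in GMP, 9.39 to 9.75 in PreGr and 8.31 to 9.01 in Gr. The same ranges were 6.62 to 6.82, 7.80 to 7.96 and 7.22 to 7.61 for T and NK cell markers, of which 6 of 10 rose and then 4 fell while 2 rose. For markers of eosinophils, basophils and mast cells they were 8.33 to 8.51, 9.11 to 10.02 and 7.87 to 9.28, with 4 of 8 rising and then 3 falling. Dendritic cell markers lay at 6.76 to 6.999 in GMP, 7.29 to 7.48 in PreGr and 6.86 to 7.04 in Gr, with Cd209a and Clec9a rising among 8 and then 3 falling. B and plasma cell markers did not fall, at 6.40 to 6.54, 7.56 to 8.17 and 7.87 to 8.77. The part of these cells in the Itgb7 and other integrin values was not tested. Arrays carry no detection call here, so no marker can be given as absent. Beside these marker counts, 6.63% of all genes rose from GMP to PreGr and 11.2% fell from PreGr to Gr.

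The lowest level of Itga4 was at the last step. In the other populations its means ran from 10.20 in GMP to 10.77 in MPP3, and it read 10.29, 10.38 and 10.62 in PreGr before 9.62, 9.57 and 9.59 in Gr. Every Gr array was below every other array of the series. The fall from PreGr to Gr was 0.83 ± 0.13 on the log2 scale (1.78-fold; limma adjusted p = 2.76e-05). From GMP to PreGr the difference was 0.23 ± 0.12 (limma adjusted p = 0.2626, and 0.03641 with the set as a block). MPP3 stood highest, just above CMP with no overlap, but its differences from MPP4 (0.39 ± 0.12), ST-HSC (0.30 ± 0.13) and MPP2 did not pass (limma adjusted p = 0.09692, 0.2942 and 0.4389). That from LT-HSC, 0.54 ± 0.12, passed without the set block (limma adjusted p = 0.002434) and not with it (0.25, limma adjusted p = 0.3716).

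Itgb1, the partner of alpha4, alpha5 and alpha6, behaved alike at the last step. It was 10.42, 10.30 and 10.65 in PreGr and 9.41, 9.39 and 9.14 in Gr, and no Gr array reached any other array. It fell by 1.14 ± 0.15 (2.21-fold; limma adjusted p = 2.123e-06). The 8 other populations had means from 10.43 ± 0.24 in GMP to 10.97 ± 0.16 in LT-HSC, with overlap between every pair of neighbours in the order, and none of the other 11 comparisons called it. Its set 2 arrays were 0.24 to 0.60 above the other arrays of their populations.

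The means of Itga5, the alpha chain of a fibronectin receptor, lay between 7.41 ± 0.06 in Gr and 7.89 ± 0.13 in CMP. Gr arrays (7.44, 7.45 and 7.35) lay below the PreGr arrays (7.77, 7.58 and 7.68), and the difference of -0.27 ± 0.10 missed the threshold without the block (limma adjusted p = 0.07236) and passed with it (0.03819). That difference was the same in both fits, since PreGr and Gr lie wholly in set 5. Neighbours other than MPP3 and Gr overlapped in the order of levels.

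Itga6, the laminin-binding alpha chain, was highest in LT-HSC and lower in more mature populations. LT-HSC arrays read 10.85, 10.71, 10.55 and 10.49 and ST-HSC arrays 10.08, 10.12 and 9.99. The means were 9.85 ± 0.18 in MPP2, 9.70 ± 0.18 in MPP3, 9.61 ± 0.22 in MPP4 and 9.76 ± 0.17 in CMP, and these 4 overlapped. GMP arrays read 9.05, 9.08, 9.17 and 9.42, PreGr arrays 8.25, 8.31 and 8.25, and Gr arrays 8.08, 8.25 and 7.93. LT-HSC lay above all other arrays, and PreGr and Gr below all others.

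Against LT-HSC, Itga6 was lower in MPP4, with a log2 difference of -1.04 ± 0.11 (-1.09 with the set as a block; limma adjusted p = 2.568e-07 and 0.0002768). It was also lower in MPP3 (-0.95 ± 0.13, and -1.001 with the block; limma adjusted p = 8.959e-06 and 0.002962; 4.03% of all genes called). In MPP2 the difference was -0.80 ± 0.13 (-0.96 with the block; limma adjusted p = 4.375e-05 and 0.01316; 4.45% of all genes called), and in the deposited values without a common scale it was 0.14, where the median of all genes was shifted by 1.35. The 3 comparisons share the LT-HSC arrays and, with the set block, rest on LT-HSC 4. ST-HSC differed from LT-HSC by -0.59 ± 0.13, which passed without the block (limma adjusted p = 0.002295) and not with it (-0.74, limma adjusted p = 0.08546). From GMP to PreGr Itga6 fell by 0.91 ± 0.13 (1.88-fold; limma adjusted p = 5.986e-06), and between PreGr and Gr the difference of -0.18 ± 0.14 did not pass (limma adjusted p = 0.4506). GMP minus CMP was -0.58 ± 0.13 without the block (limma adjusted p = 0.003187) and differed by 0.01 with it (0.9898), where the comparison hangs on GMP 4.

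Itgb3, the beta chain of the platelet and vitronectin receptors, had its highest means in Gr (8.50 ± 0.30), PreGr (8.10 ± 0.16) and LT-HSC (8.09 ± 0.48) and its lowest in MPP4 (7.04 ± 0.10). GMP arrays read 7.67, 7.47, 7.68 and 7.12, PreGr arrays 7.93, 8.25 and 8.13, and Gr arrays 8.25, 8.82 and 8.42. The rise of 0.62 ± 0.19 from GMP to PreGr (1.53-fold; limma adjusted p = 0.02101, and 0.0337 with the block) was the weakest of the 6 calls in that step. It was lost without GMP 1, 2, 3 or 4 (differences 0.68, 0.61, 0.68 and 0.50; larger limma adjusted p = 0.06352, 0.138, 0.05414 and 0.09276) and without PreGr 2 or 3 (0.54 and 0.60; 0.129 and 0.08878). The 6 platelet markers had a list level of 6.96 to 7.16 in GMP and 6.81 to 7.40 in PreGr.

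In LT-HSC the 4 arrays of Itgb3 spread from 7.48 to 8.63, and the lowest was LT-HSC 4, the array of set 2. LT-HSC exceeded MPP4, ST-HSC and MPP3 without the set block (log2 differences of -1.05, -0.63 and -0.75 from LT-HSC; limma adjusted p = 5.021e-05, 0.01644 and 0.004743) and not with it (-0.44, 0.09 and -0.06; 0.3814, 0.9198 and 0.9262). Platelet markers had a list level of 7.91 to 8.65 in LT-HSC and 6.96 to 7.35 in MPP4. In ST-HSC and MPP3 it was 7.796 to 8.10 and 7.18 to 7.56. The level was 8.43 to 8.797 in MPP2 and 8.53 to 8.55 in CMP, where mean Itgb3 was lower than in LT-HSC, at 7.63 and 7.51. A link of these markers to Itgb3 was not tested. Set and population cannot be told apart for LT-HSC 1 to 3.

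In 4 of the 12 comparisons none of the 10 genes was called by both limma fits. ST-HSC against LT-HSC called 0.537% of all genes, and 6 of the 10 had an unadjusted p under 0.05 without the block and 1 with it; the fit without the block alone called 2. For GMP against CMP (1.04% of all genes called) these counts were 4, 2 and 2. For MPP3 against MPP4 (0.281%) they were 3, 1 and 0, and for MPP2 against MPP3 (0.662%) 3, 2 and 0. The percentages are of genes called by both fits. Shares of all genes at the looser rules are not given here, so these counts are no result about the integrins. Without MPP2 2, Itgal was called lower in MPP2 than in MPP3 (log2 difference -0.77, limma adjusted p = 0.01127).

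**Figure D3:**
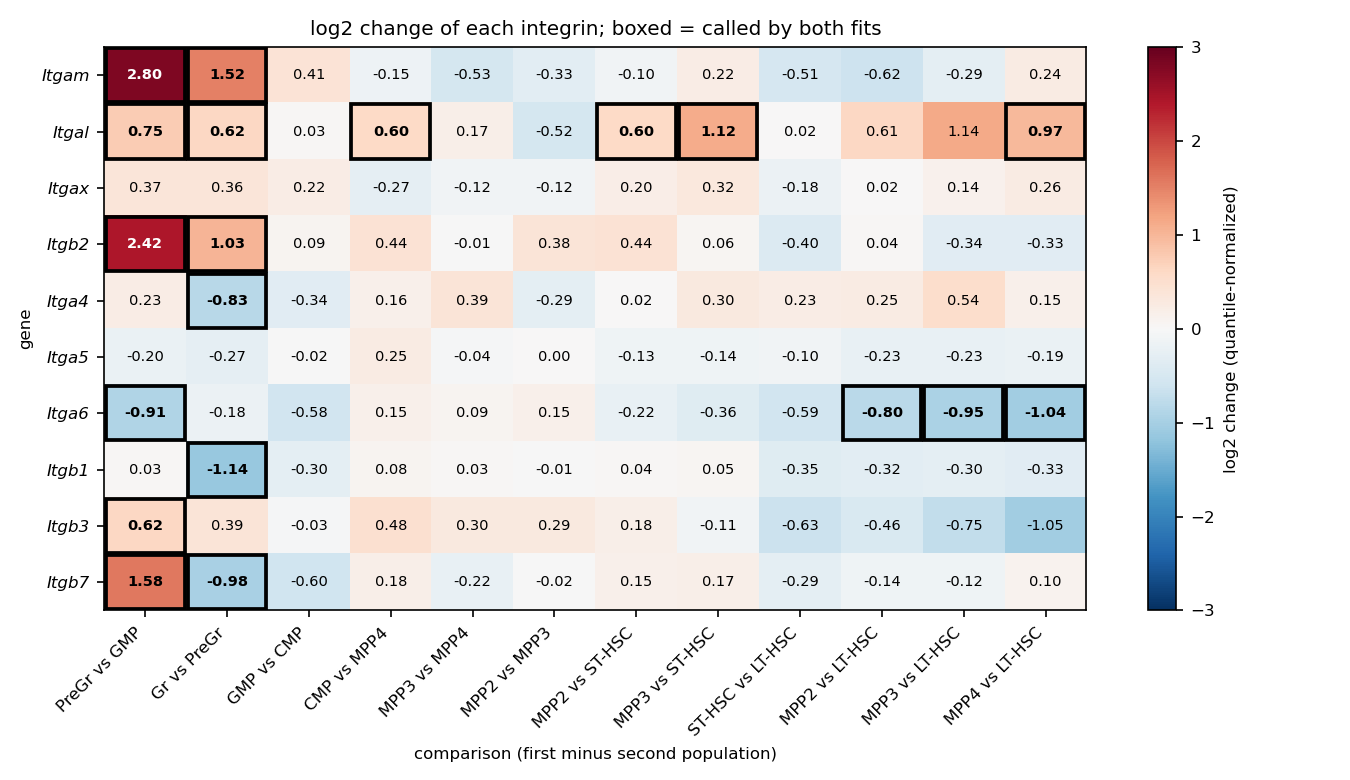
Log2 differences (first population minus second, fit without the block) of the 10 integrin genes in all 12 comparisons, with boxes around the 19 called by both fits. Boxes cluster in the 2 granulocyte steps, which also called the largest shares of all genes (15.6% and 19.3%). Outside them only Itgal and Itga6 are boxed. In deposited values the Itga6 difference of MPP2 against LT-HSC has the opposite sign.

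A further 17 integrin subunits were measured. From GMP to PreGr 1 of 17 rose, Itgb2l (1.60 ± 0.15, limma adjusted p = 7.031e-09), a relative of Itgb2. Of all genes 6.63% rose in this step. The list median was -0.02, that of all genes -0.02 and that of the 10 leukocyte integrins 0.49. The last includes Itgam and Itgb2, the chains of the sorted antigen, so part of it was set by the gates. The 17 also had a lower list level in GMP, 7.001 to 7.20 against 8.29 to 8.31 for the 10. From PreGr to Gr Itgb2l rose again (0.84 ± 0.17), Itga9 rose by 0.34 ± 0.12, and Itga1, a collagen receptor chain, fell by 1.68 ± 0.17. Among progenitors, Itga1 was higher in GMP than in CMP by 1.96 ± 0.16. Itga2b, the platelet partner of beta3, was 9.16 in CMP against 7.93 in MPP4 (1.23 ± 0.12) and 7.86 in GMP. It was also higher in MPP2 than in ST-HSC (0.84 ± 0.13) and MPP3 (0.56 ± 0.13).

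Of the 19 genes that switch integrins on or off, 6 rose from GMP to PreGr and 0 fell, with a list median of 0.30. They were Fyb (2.44 ± 0.19), an adaptor that links to Rap1 signalling, Flna (1.28 ± 0.15), the filamin that competes with talin, Sipa1 (0.74 ± 0.15), which turns Rap1 off, Rap1b (0.64 ± 0.10), Skap2 (0.46 ± 0.12) and Tln1 (0.37 ± 0.11), the gene for talin. The 6 include genes of activating and of inhibiting proteins, and 13 of the list did not pass. From PreGr to Gr 5 rose and 0 fell, with a median of 0.12: Fyb (1.08 ± 0.20), the Rap1 effectors Rassf5 (0.95 ± 0.15) and Apbb1ip (0.73 ± 0.12), Skap2 (0.71 ± 0.13) and Rap1b (0.59 ± 0.10). Fermt3, the gene for kindlin-3, was called only between CMP and MPP4 (0.67 ± 0.13) among the 12 comparisons. Of all genes, 6.63% rose and 8.98% fell from GMP to PreGr, and 8.12% and 11.2% from PreGr to Gr.

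Of 22 genes for integrin signalling and links to the cytoskeleton, 13 rose from GMP to PreGr and 1 fell, with a median of 0.48. Of all genes, 6.63% rose and 8.98% fell at this step, and 8.12% and 11.2% from PreGr to Gr. The Src-family kinase gene Fgr rose from 7.08 to 9.88 (2.80 ± 0.15; limma adjusted p = 4.943e-14), Vcl, for vinculin, by 1.73 ± 0.14, Zyx, for zyxin, by 1.35 ± 0.16, and Actn1, for an alpha-actinin, by 1.27 ± 0.23. Vav3, a guanine nucleotide exchange factor, fell by 0.39 ± 0.11. From PreGr to Gr 10 rose and 2 fell (median 0.39), led by Actn1 (1.96 ± 0.24), Lims1 (0.85 ± 0.14), Vasp (0.81 ± 0.14) and Fgr (0.75 ± 0.16), while Actn4 fell by 0.51 ± 0.16 and Parvb by 0.43 ± 0.14. Of 10 granulocyte markers, 8 were higher in PreGr than in GMP and 0 lower, and from PreGr to Gr 4 rose and 2 fell. Their list level was 8.23 to 9.31 in GMP, 11.89 to 12.16 in PreGr and 12.32 to 12.52 in Gr.

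**Figure D4:**
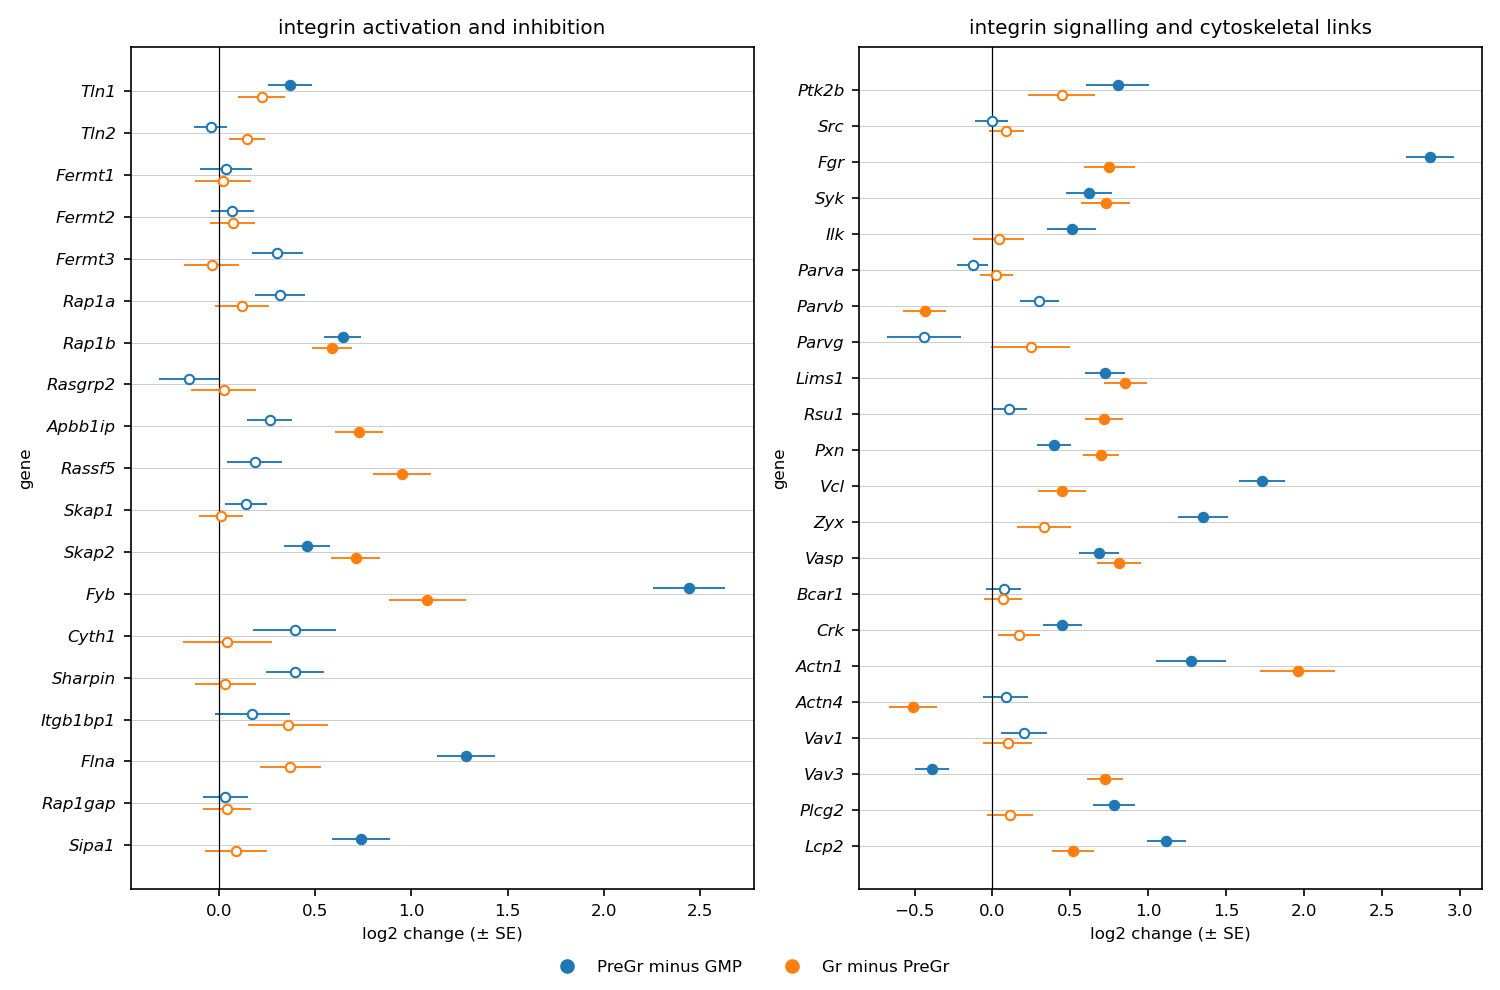
Log2 differences of the listed activation and signalling genes at the 2 granulocyte steps, with PreGr minus GMP in blue and Gr minus PreGr in orange. Filled points were called by both fits and open points were not; Fgr and Fyb have the largest values of the first step, at 2.80 and 2.44, and Actn1 that of the second, at 1.96.

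Among 15 ligands and counter-receptors, Fn1, which encodes the fibronectin bound by alpha4 beta1 and alpha5 beta1, rose from 6.96 in GMP to 11.95 in PreGr (4.99 ± 0.15; limma adjusted p = 2.542e-19) and fell by 2.20 ± 0.16 to Gr. Thbs1, for thrombospondin, rose at both steps (1.20 ± 0.26 and 2.34 ± 0.28), Lamc1, a laminin chain, fell by 0.41 ± 0.10 at the first, and Vcam1 fell by 1.16 ± 0.35 at the second. Of 9 integrin-associated membrane proteins the same 3 rose at both steps. They were Plaur, the urokinase receptor (2.48 ± 0.19 and 1.37 ± 0.20), and the tetraspanins Cd9 (1.66 ± 0.20 and 1.27 ± 0.21) and Cd82 (0.63 ± 0.17 and 0.94 ± 0.18). Of 9 selectin-pathway and other adhesion genes, Cd44 and Cd226 rose to PreGr (0.53 ± 0.13 and 0.47 ± 0.15) while Cd34 fell by 3.26 ± 0.14 and Pecam1 fell by 1.21 ± 0.15. To Gr, Cd44 (0.99 ± 0.14), Mcam (0.92 ± 0.17) and Selplg, the P-selectin ligand (0.91 ± 0.22), rose and Cd34 fell again, CD34 being an antigen of the GMP gate. Shares of all genes at the first step were 6.63% higher and 8.98% lower, and at the second 8.12% and 11.2%.

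Among the 10 genes, Itgam and Itgb2 were the pair most alike over the 31 arrays (Pearson r = 0.97), and Itgal and Itga6 ran most opposite (r = -0.92). Itga4 and Itgb1, which form VLA-4, had r = 0.77, Itga6 and Itgb1 0.75, and Itga4 and Itgb7 -0.03. These are descriptions, since arrays share populations and sets. Itgam and Itgb2 encode the chains of the sorted antigen, so their likeness was in part set by the gates. The same holds for the genes most like them. The genes whose levels were most like those of each integrin, by the same measure, were Pilra, Ccl6 and Klra2 for Itgam (each 0.98) and Slco4c1, Olfm4 and Mmp8 for Itgb2 (0.99, 0.98 and 0.98). For Itgal they were Cd52, Ccdc88c and Tyrobp (0.95, 0.94 and 0.94), and for Itga6 Slc12a2, Abcg2 and Pfkm (0.96, 0.95 and 0.95). Itgb7 was most like Cd209a, Ccl2 and Emp3 (0.89, 0.87 and 0.86), and Itgb3 most like Sec14l1, Slc25a24 and Atp2a3 (0.90, 0.86 and 0.86). Itgb1 was followed by Eef2, Lancl2 and Eny2 (0.93, 0.91 and 0.90), and Itga4 by Luc7l3, Baz1b and Bst2 (0.86, 0.85 and 0.85). Itgax was most like Mapk7, Slc17a9 and Tesc (0.92, 0.89 and 0.88), and Itga5 most like Cmtr2, Ncbp2 and Sars (0.84, 0.81 and 0.81).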

How the data were processed

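Per the labels' protocols, RNA of 20000 double-sorted cells per sample was amplified and hybridised to 1-colour whole-transcript arrays. The deposited values are log2 intensities that the authors made by RMA, per the submitters' processing notes; its version is not given in the sources used here. They run from 1.39 to 14.29, and the number of arrays limits their precision. The table holds 35557 probes, and the probe annotation, which can be old, gives 1 gene for 21789, several for 1621 and no gene for 12147. Gene identifiers of 21698 matched the GRCm38.p6 gene table and 91 did not. The brightest probe stood for each of 999 genes with more than 1. A further 3 probes pair Itgam with a second gene and were not used. Cross-hybridisation between related subunits was not examined.

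All 31 arrays were quantile-normalized and fitted by lmFit, contrasts.fit and eBayes (limma 3.58.1, R 4.3.3), with a mean for each population and 22 residual degrees of freedom. The second fit had the array set as a further block, which left 18 of them. Arrays joined a set where 2 or more probes held identical deposited values on a pair. Correction was by Benjamini-Hochberg over 19938 genes. The scripts were tested on simulated data. Plots were made in Python 3.11.15 (matplotlib 3.10.9).

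The 10 genes, the comparisons and the gene lists were chosen with earlier results of these data known. Named genes are the 10 integrins, up to 4 called genes of each list with the largest change (all where 5 or fewer were called), and the 3 best-correlated genes with a gene name; values of any others were chosen after they were seen. Listed genes without a probe of their own were not analysed here. A promoter table gave the sequences.

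Replicate numbers of the labels were checked as pairs by correlating deviations from the group means. Only for MPP4 against LT-HSC did every same-numbered pair exceed 0.1 (0.13 to 0.27 over 4 pairs, and -0.03 to 0.06 with the set removed). The replicate number was therefore also fitted as a block.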

Additional observations from a re-analysis of the deposited data

Results flagged for a closer look

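Among 30 groups of 4 or 5 arrays, each of 1 gene in 1 population, 2 held an array far from the rest, where chance gives about 1 in 20. Itgal in MPP4 4 was 8.3189, while the other 4 MPP4 arrays lay between 7.90 and 7.97, and the gap to the nearest was 0.83 of the whole range. Itgb1 in GMP 4 was 10.78 against 10.26 to 10.35 in the other 3 GMP arrays, with a gap of 0.84 of the range. Both arrays belong to array set 2, and the part of the set was not tested.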

How the results depend on the processing

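Of the 19 called results, 19 kept direction and call under the filter on dim genes and with array weights; each fit alone and the mean of a gene's probes could not change them, since a call needs both fits and each integrin has 1 probe. With the replicate block 17 could be fitted and kept their call; the block gave 8 called integrins from GMP to PreGr against 6 (Itgax and Itga4 added), 2 for MPP4 against LT-HSC, as without it, and changed no other count. The replicate block and the set block could not be fitted together for MPP3 against MPP4 or for ST-HSC, MPP2 and MPP3 against LT-HSC; there the replicate block without the set, added after seeing the data, called 1, 4, 6 and 5, on the weaker condition of 1 fit. On the deposited scale 12 were the same, 6 lost the call and 1, Itga6 in MPP2 against LT-HSC, reversed to 0.14, with the median of all genes shifted by 1.35, 1.32, 1.06 and 0.54 in MPP2, ST-HSC, MPP3 and MPP4 against LT-HSC, and by 0.50, 0.29, -0.27, 0.25 and 0.13 in MPP3 against MPP4, MPP2 against MPP3, MPP3 against ST-HSC, GMP against CMP and PreGr against GMP. There the counts were 0 for CMP against MPP4, MPP2 and MPP3 against ST-HSC, and MPP2 and MPP3 against LT-HSC, and 1 for MPP4 against LT-HSC; the cause was not tested. Centring on array medians gave 5 for CMP against MPP4, 0 for MPP2 against ST-HSC, 1 for ST-HSC against LT-HSC and 1 for MPP4 against LT-HSC. Array weights gave 8 from GMP to PreGr (Itgax and Itga4 added), 9 from PreGr to Gr (Itgax, Itga5 and Itgb3 added), 3 for CMP against MPP4, 1 for ST-HSC against LT-HSC and 2 for MPP3 against LT-HSC. Shares of all genes called under these other settings are not given here, so a changed count is no result about the integrins. Fits within a set, on fewer arrays, gave 2 for CMP against MPP4 and 0 for MPP2 and MPP3 against ST-HSC. Within set 5 the calls of both granulocyte steps were kept. There Itgax was added at both (limma adjusted p = 0.01921 and 0.04729) and Itga5 from PreGr to Gr (0.03599). The fit without the set block alone gave 2 for GMP against CMP, 2 for ST-HSC, 3 for MPP2 and 4 for MPP3 against LT-HSC. With 1 array left out, counts ran from 5 to 6 at each granulocyte step, from 0 to 1 for CMP against MPP4, MPP2 against MPP3 and MPP2 against ST-HSC, from 1 to 2 for MPP3 and MPP4 against LT-HSC, and stayed at 1 for MPP3 against ST-HSC and MPP2 against LT-HSC and at 0 for the other 3. Comparisons with LT-HSC could not be fitted without LT-HSC 4, those of ST-HSC, MPP2 and MPP3 with LT-HSC and of MPP3 with MPP4 without MPP3 3, and GMP against CMP without GMP 4.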
